A study of Silurus meridionalis with 18 samples.

Results

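Described here are the apolipoproteins and fatty acid handling genes of Silurus meridionalis, the southern catfish, a predatory fish of fresh water. A gene was taken up when the protein name in the authors' annotation contained any of 11 terms: apolipoprotein, fatty acid-binding (with or without the hyphen), lipoprotein lipase, lipoprotein receptor, vitellogenin, perilipin, long-chain-fatty-acid, fatty acid desaturase, elongation of very long chain, and microsomal triglyceride. This rule uses names and no measured value, and it found 106 of the 25390 genes measured. They are called lipid-handling genes below. By name they were 28 apolipoproteins, 2 models of microsomal triglyceride transfer protein, 3 lipases named lipoprotein lipase, 32 lipoprotein receptors and receptor-associated proteins, 3 vitellogenins, 14 fatty acid-binding proteins, 8 long-chain fatty acid CoA ligases, 9 elongases, 3 desaturases, 2 perilipins and 2 APOBEC2 genes. The APOBEC2 genes entered because their full name contains the word apolipoprotein.

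The study measured polyadenylated RNA by paired-end sequencing in 18 tissues of adult fish, with no treatment. The tissues were Intestine, Liver and Pancreas, the nervous tissues Retina, Brain, Telecephlon (the label's spelling of telencephalon) and Olfactory_bulb, the outer surfaces Gill, Skin, Maxillary_barbel and Mandibular_barbel, the gonads Ovary and Testis, and Heart, Muscle, Kidney, Head_kidney and Spleen. With a single library for each tissue, no difference below has a replicate check, and no SD between replicates or p-value is given. The number, sex and age of the fish behind a library are not stated in the labels. Values are FPKM as the authors deposited them, a level of fragments already divided by gene length and by library depth. In whole tissues, fewer cells of a type and less RNA per cell cannot be told apart.

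Fat is insoluble in water, and vertebrates carry it in blood inside particles called lipoproteins. Some are built on apolipoprotein B with the help of microsomal triglyceride transfer protein, and high-density lipoprotein has A-I as its main protein. Smaller exchangeable apolipoproteins such as A-I, A-IV, C-I, C-II and E cover the particles. Intestine packs dietary fat and Liver packs its own. Lipoprotein lipase frees fatty acids at the vessel wall, receptors of the low-density lipoprotein (LDL) receptor family take up the remnants, and inside the cell fatty acid-binding proteins, CoA ligases, elongases, desaturases and perilipins carry, activate, lengthen, unsaturate and store the fatty acids.

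The summed FPKM of a library ran from 457883 in Brain to 1006540 in Pancreas. Depth could only be estimated from the smallest steps between low values, at 12.7 M fragments in Skin (M, mega), 19.1 M in Muscle and between 40.5 and 51.3 M in the other libraries, and an estimate may be off by a factor of 2. Some summed marker sets stood with the labels. Hepatocyte markers had 101688 FPKM in Liver and at most 1261 FPKM, in Retina, elsewhere. Nearly all of the Retina sum was 1 model, protein AMBP, at 1250 FPKM. In Brain nearly all of 1088 FPKM was 1 serotransferrin model, at 1079 FPKM. Enterocyte markers had 2426 FPKM in Intestine and 605 FPKM in Kidney, the next-highest tissue. Oocyte markers had 34716 FPKM in Ovary and at most 6.19 FPKM elsewhere. The sums of other sets did not. Testicular soma markers had 797 FPKM in Head_kidney and 234 FPKM in Testis. Nearly all of the Head_kidney sum was 1 model, steroidogenic acute regulatory protein, at 795 FPKM. All 4 models of this set reached 1 FPKM in Testis, and 2 were highest there, against 1 in Head_kidney and 1 in Gill. Keratinocyte markers had 26910 FPKM in Maxillary_barbel and 2881 FPKM in Skin. Adipocyte markers, with no library of their own tissue, were highest in Gill, at 1097 FPKM. Little of that sum came from the peroxisome proliferator-activated receptor gamma, hormone-sensitive lipase and CIDE-3 models, at most 26.0 FPKM each. Of the 7 models of this set, 4 reached 1 FPKM in Gill and 2 were highest there. The symbol adipoq was not matched. Skin also held muscle transcripts, with summed skeletal muscle markers at 3796 FPKM in Skin, against 157784 FPKM in Muscle.

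Of the 106 lipid-handling genes, 98 had an FPKM of at least 1 in some tissue, against 87.4% of all genes, and 77 (72.6%) had at least 10, against 60.2% of all genes. The 8 others stayed under 1 FPKM in every library: the 3 vitellogenins, 4 fatty acid-binding proteins and 1 apolipoprotein A-I model. In a single library, 64 of the 106 had an FPKM of at least 1 in Olfactory_bulb, the highest count (background 66.6% of all genes), and 17 in Muscle, the lowest (24.8%). Liver had 53, or 50.0%, above its background of 41.4%, and Intestine had 58, or 54.7%, against 59.0%. Only 3 genes, or 2.83%, had an FPKM of at least 1 in all 18 libraries, against 10.2% of all genes, and they were apolipoprotein Eb, heart-type fatty acid-binding protein and fatty acid binding protein 11a. Tau, an index that is 0 for an even level in every tissue and 1 for a gene found in a single tissue, was at least 0.85 for 31 of the 98 (31.6%), against 20.9% of all genes that reached 1 FPKM in some tissue. With a pseudocount of 0.1 in place of 1 the count was 20 (20.4%), against 10.1% of all genes. Median tau was 0.794 for the lipid-handling genes and 0.613 for all genes.

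A gene was called tissue-enriched when it had an FPKM of at least 10 in its highest tissue and an FPKM + 1 in that tissue 5 or more times the FPKM + 1 of the tissue ranked next. This held for 19 lipid-handling genes (17.9%), against 7.51% of all genes. Of these, 9 were highest in Liver (background 0.965% of all genes), 4 in Intestine (0.65%), 2 in Ovary (2.02%), and 1 each in Brain (0.209%), Retina (1.21%), Kidney (0.28%) and Heart (0.449%). The gene just inside the 5-fold threshold was apolipoprotein F, with 5.15-fold in Liver over Pancreas. Just outside were long-chain fatty acid CoA ligase 5 in Intestine and LDL receptor class A domain protein 4-like in Retina, with 4.83-fold over Liver for the ligase and 4.82-fold over Olfactory_bulb for the class A gene.

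**Figure D1:**
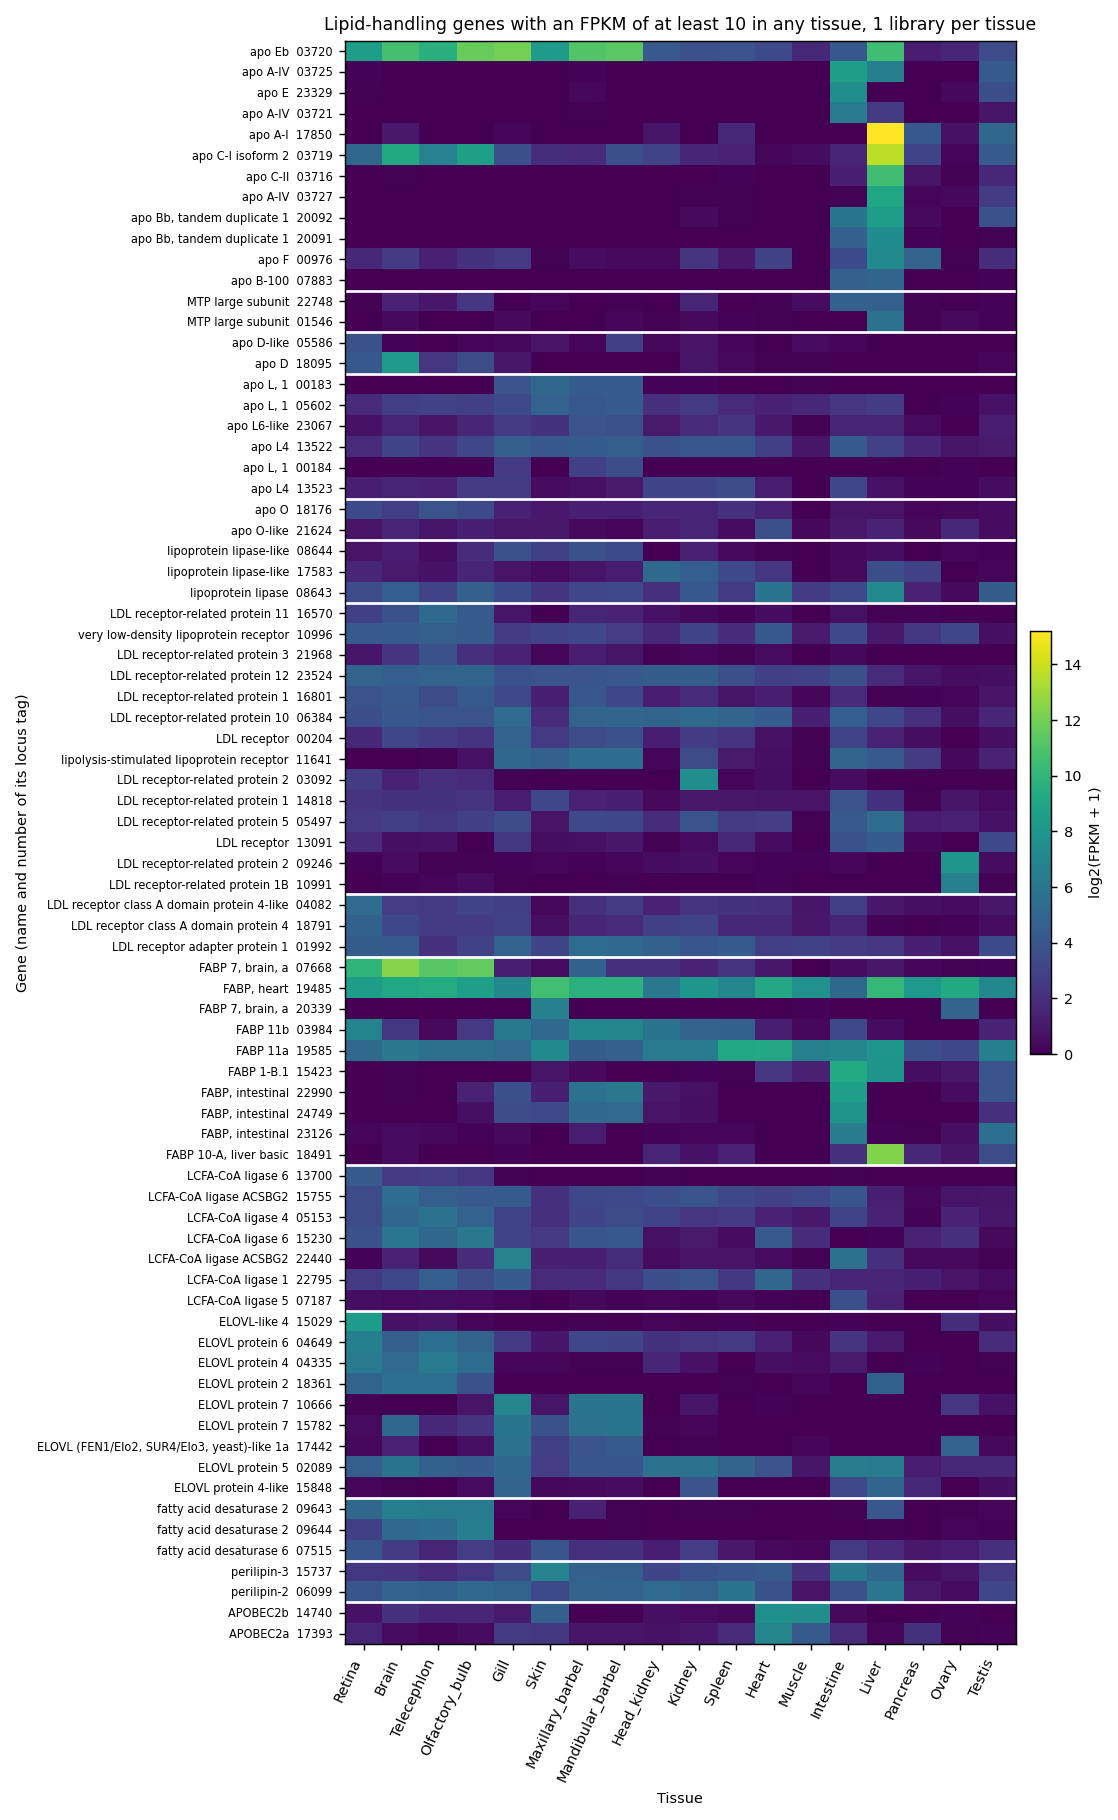
Level of the 77 lipid-handling genes that reached 10 FPKM in some tissue, as log2(FPKM + 1), by tissue (columns) and gene (rows, with the number of the locus tag), 1 library per tissue; white lines part the classes. The brightest cells are apolipoprotein A-I and apolipoprotein C-I in Liver, at 37922 and 13426 FPKM, and the fatty acid-binding proteins hold a bright row in every tissue for the heart type and a bright block in Retina and the brain parts for the brain type.

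Summed over the 106 genes, Liver devoted 9.53% of its summed FPKM to lipid handling, followed by Brain with 2.09%, Olfactory_bulb with 1.69%, Telecephlon with 1.04% and Gill with 1.01%. Few transcripts carried the top shares. In Liver, A-I had 37922 and C-I 13426 of the set's 62935 FPKM. In Brain, brain-type fatty acid-binding protein 7a had 5549 of 9575 FPKM. The Brain share does not mean that the set as a whole was raised there. Its median log2(FPKM + 1) in Brain was 1.59, against 2.12 for all genes, and 58.5% reached 1 FPKM, against 65.5%. In Liver the set was above all genes by that count, as given above. Pancreas had the lowest share, 0.0394%. The classes had different leading tissues. Secreted apolipoproteins of lipoprotein particles (17 genes) summed to 55666 FPKM in Liver, then 4152 FPKM in Gill and 3696 FPKM in Olfactory_bulb, with 2.81 FPKM in Muscle at the low end. Fatty acid-binding proteins were nearly level between Liver, at 6646 FPKM, and Brain, at 6190 FPKM. The receptor sum led in Ovary, at 369 FPKM, and Kidney, at 299 FPKM. In Ovary it lay mostly in C0J45_09246 and C0J45_10991. There 6 of the 26 receptor models reached 1 FPKM, against 26.3% of all genes. In Olfactory_bulb 22 of the 26 did, against 66.6% of all genes. Elongases led in Retina, at 552 FPKM, and CoA ligases in Gill, at 167 FPKM. Most of the Retina elongase sum was C0J45_15029, and nearly all of the Gill apolipoprotein sum was apolipoprotein Eb, at 4134 FPKM.

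**Figure D2:**
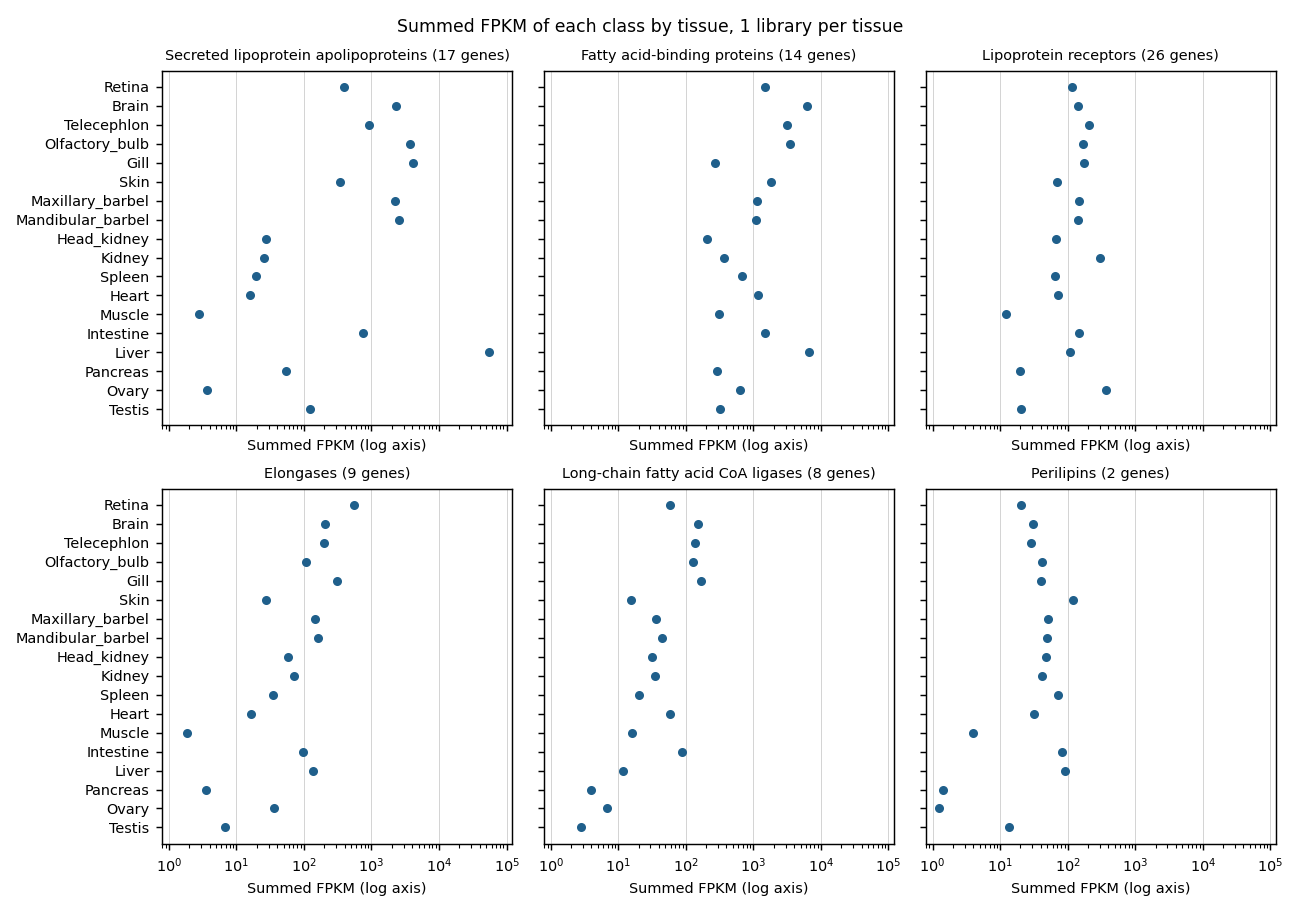
Summed FPKM of 6 classes of lipid-handling genes (log axis, the same in every panel) in each of 18 tissues, 1 library per tissue, each point being 1 library. Apolipoproteins span the widest range, from 2.81 FPKM in Muscle to 55666 FPKM in Liver, while fatty acid-binding proteins stay at or above 203.6 FPKM in every tissue.

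The most abundant lipid-handling transcript was apolipoprotein A-I (C0J45_17850), the main protein of high-density lipoprotein. It had 37922 FPKM in Liver, 33.2 FPKM in Testis and 17.4 FPKM in Pancreas, at most 2.39 FPKM in any other tissue, and it was listed at 0 in 10 libraries, Intestine among them. A model of the same name that starts 4.37 kb further on chromosome 20 (C0J45_17851) reached 2.80 FPKM in Liver. The remaining model, on chromosome 25 (C0J45_21580), stayed at or under 0.204 FPKM everywhere, so that nearly all apolipoprotein A-I signal came from C0J45_17850 in Liver. Reads of such copies can be shared, and the value of each copy is uncertain.

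Apolipoprotein C-I (C0J45_03719), which in mammals slows the uptake of lipoprotein remnants, had 13426 FPKM in Liver and, unlike A-I, a second site in the brain. It had 600 FPKM in Brain, 394 FPKM in Olfactory_bulb, 105 FPKM in Telecephlon and 34.3 FPKM in Retina, against at most 19.3 FPKM in the remaining tissues. The C-I model has under 300 coding bases, and the FPKM of so short a model is uncertain. Apolipoprotein C-II (C0J45_03716), the activator of lipoprotein lipase, was in Liver almost alone. It had 1512 FPKM there, 2.21 FPKM in Testis, 1.51 FPKM in Intestine and under 1 FPKM in the other 15 tissues. Apolipoprotein F (C0J45_00976), known in mammals as an inhibitor of lipid transfer between particles, had 145 FPKM in Liver, 27.4 FPKM in Pancreas and 9.89 FPKM in Intestine.

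The apolipoprotein A-IV models, named for an exchangeable apolipoprotein that mammalian intestine secretes with dietary fat, were split between Intestine and Liver. C0J45_03725 had 348 FPKM in Intestine and 89.5 FPKM in Liver. C0J45_03721 had 74.7 FPKM in Intestine and 4.99 FPKM in Liver, and its near neighbour C0J45_03722 had 3.84 FPKM in Intestine and 0.837 FPKM in Liver. C0J45_03727 ran the other way, with 0.0832 FPKM in Intestine and 505 FPKM in Liver. The remaining A-IV models were low and highest in Kidney: C0J45_23328 had 3.69 FPKM and the fragment C0J45_25296, on an unplaced scaffold, had 2.67 FPKM. Another gene model overlaps C0J45_03725, and since it is not given whether counting used strand, reads of the overlapping pair cannot be told apart.

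Apolipoprotein E, the ligand by which receptors recognise remnants, was highest outside Liver in both its copies. The Eb copy (C0J45_03720) had 4134 FPKM in Gill, 3299 FPKM in Olfactory_bulb, 2563 FPKM in Mandibular_barbel, 2199 FPKM in Maxillary_barbel, 1715 FPKM in Brain and 1488 FPKM in Liver. It had 808 FPKM in Telecephlon, 354 FPKM in Retina and 344 FPKM in Skin, and between 1.20 FPKM in Pancreas and 18.3 FPKM in Head_kidney in the other 9 tissues. The nervous tissues, the outer surfaces and Liver were thus high, and Intestine, at 17.1 FPKM, was in the low set. The E copy on chromosome 29 (C0J45_23329) had the reverse pattern, with 193 FPKM in Intestine, 11.8 FPKM in Testis, 0.277 FPKM or less elsewhere and a listed 0 in Liver.

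Of these genes, 7 lie close together on the minus strand of chromosome 4, from 3668039 to 3894694 in the authors' annotation (the build is not given in the sources used here), a span of 227 kb. In order they are C-II, C-I, Eb and the A-IV models C0J45_03721, C0J45_03722, C0J45_03725 and C0J45_03727. Neighbours differed in their leading tissue: C-II and C-I at one end and A-IV C0J45_03727 at the other were highest in Liver, Eb in Gill, and the A-IV models between them in Intestine. The last pair of A-IV models led in different tissues, C0J45_03725 in Intestine and C0J45_03727 in Liver. A smaller group on chromosome 29, from 4890480 to 4900643, holds the A-IV model that was highest in Kidney beside the E copy that was highest in Intestine.

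**Figure D3:**
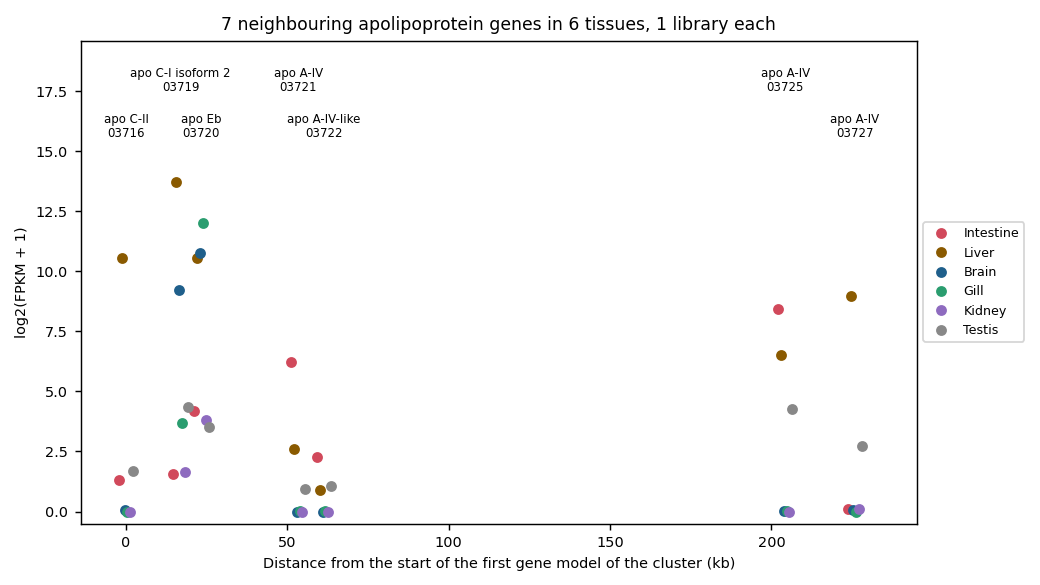
Level of 7 neighbouring apolipoprotein genes of chromosome 4, as log2(FPKM + 1), against distance in kb from the start of the first gene model, in 6 tissues with 1 library each; the points of a gene are set slightly apart sideways so that they can be seen. Liver points are highest for C-II, C-I and A-IV C0J45_03727, the Gill point for Eb, and Intestine points for the other A-IV models.

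The particle-building genes were highest in Intestine and Liver, and 2 of the 5 models passed 1 FPKM in another tissue as well. Apolipoprotein B-100 (C0J45_07883, chromosome 8) had 24.8 FPKM in Intestine and 30.7 FPKM in Liver, and at most 0.126 FPKM in any other tissue. The apolipoprotein Bb model C0J45_20091 (chromosome 23) had 24.8 FPKM in Intestine and 166 FPKM in Liver. The model next to it, C0J45_20092, has 921 coding bases and carries the same name, and it had 58.8 FPKM in Intestine, 372 FPKM in Liver and 13.1 FPKM in Testis. Both Bb models have an open end in the annotation, and whether they are pieces of the same gene was not tested. Of the 2 copies of microsomal triglyceride transfer protein, C0J45_22748 had 25.6 FPKM in Intestine, 24.3 FPKM in Liver, 4.35 FPKM in Olfactory_bulb, 1.97 FPKM in Kidney and 1.74 FPKM in Brain, while C0J45_01546 had 0.0272 FPKM in Intestine and 50.9 FPKM in Liver, with at most 0.316 FPKM elsewhere.

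Apolipoproteins outside the lipoprotein core went to other tissues. Apolipoprotein D (C0J45_18095), a lipocalin made by glia in mammals, had 296 FPKM in Brain, 17.4 FPKM in Retina, 10.2 FPKM in Olfactory_bulb and 4.27 FPKM in Telecephlon. A second, D-like model (C0J45_05586) had 12.8 FPKM in Retina and 6.28 FPKM in Mandibular_barbel, but 0.217 FPKM in Maxillary_barbel. Summed myelin and glia markers were 14002 FPKM in Brain, 930 FPKM in Telecephlon, 725 FPKM in Olfactory_bulb, 545 FPKM in Maxillary_barbel and 188 FPKM in Retina, so Brain was highest for both and the order after it differed. The part of these cells in the apolipoprotein D level was not tested.

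The 6 apolipoprotein L models, of a family linked in humans to defence and membrane traffic, were mostly of the outer surfaces. Their sum was 88.1 FPKM in Mandibular_barbel, 79.5 FPKM in Skin and 79.5 FPKM in Maxillary_barbel, and 1.12 FPKM in Ovary. The L1 model C0J45_00183 had 31.8 FPKM in Skin, 20.2 FPKM in Maxillary_barbel, 20.1 FPKM in Mandibular_barbel and 15.1 FPKM in Gill, and at most 0.131 FPKM in the other 14 tissues. Its neighbour C0J45_00184, which starts 5.87 kb further, had 11.4 FPKM in Mandibular_barbel and was listed at 0 in Skin. Apolipoprotein O, a subunit of the mitochondrial cristae complex, had 13.8 FPKM in Telecephlon for C0J45_18176 and 11.9 FPKM in Heart for the O-like C0J45_21624.

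The APOBEC2 genes, relatives of the enzyme that edits apolipoprotein B mRNA and known in mammals as genes of striated muscle, were highest in Heart. APOBEC2b (C0J45_14740) had 196 FPKM in Heart, 179 FPKM in Muscle and 24.4 FPKM in Skin, and at most 3.47 FPKM elsewhere. APOBEC2a (C0J45_17393) had 121 FPKM in Heart and 18.8 FPKM in Muscle. The Skin library, as given above, also held skeletal muscle markers, and their part in the Skin value was not tested.

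Lipoprotein lipase (C0J45_08643, chromosome 9) had 141 FPKM in Liver, 56.4 FPKM in Heart, 24.2 FPKM in Olfactory_bulb, 22.04 FPKM in Brain and 21.0 FPKM in Testis. Muscle, a main site of the enzyme in mammals, had 5.57 FPKM. Its neighbour on the chromosome, the lipase-like C0J45_08644, had 13.4 FPKM in Gill, 12.8 FPKM in Maxillary_barbel, 9.81 FPKM in Mandibular_barbel and 6.36 FPKM in Skin. A lipase-like gene on chromosome 20 (C0J45_17583) had 36.4 FPKM in Head_kidney, 22.1 FPKM in Kidney and 11.7 FPKM in Liver. The 3 lipases thus led in 3 different tissues, and none passed the 5-fold rule.

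Among receptors, the extremes were in Ovary and Kidney. LDL receptor-related protein 2, or megalin, is the large endocytic receptor of the mammalian kidney tubule. Its copy on chromosome 3 (C0J45_03092, 13968 coding bases) had 173 FPKM in Kidney, 5.48 FPKM in Retina, between 1.89 and 3.13 FPKM in the brain parts, and under 0.5 FPKM in the other 13 tissues. The copy on chromosome 9 (C0J45_09246), a shorter model of 3552 coding bases, had 256 FPKM in Ovary and at most 0.566 FPKM, in Kidney, elsewhere. Both are called megalin copies here by their annotation name alone, and whether the shorter model is megalin was not tested. The Ovary also held a model named LDL receptor-related protein 1B (C0J45_10991, chromosome 11), at 97.7 FPKM against at most 0.434 FPKM elsewhere. The other 4 models of that name were highest in Telecephlon, Olfactory_bulb or Kidney and reached 6.78 FPKM at most.

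The very low-density lipoprotein receptor is known in egg-laying vertebrates as the oocyte receptor for vitellogenin. C0J45_10996, within 101 kb of the ovarian 1B model on chromosome 11, had 23.4 FPKM in Telecephlon, 20.1 FPKM in Olfactory_bulb, 18.7 FPKM in Brain, 17.8 FPKM in Retina, 17.1 FPKM in Heart and 8.46 FPKM in Ovary. The second model, C0J45_15931, had 7.28 FPKM in Olfactory_bulb and 1.07 FPKM in Ovary. The vitellogenins themselves, the yolk precursors that the female liver makes, were near 0: the 3 models had at most 0.0415 FPKM in Liver and at most 0.143 FPKM in any library.

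The LDL receptor itself was split between surface and liver. C0J45_00204 had 26.7 FPKM in Gill, 13.1 FPKM in Mandibular_barbel, 10.3 FPKM in Maxillary_barbel and 1.88 FPKM in Liver. C0J45_13091 had 4.51 FPKM in Gill, 20.2 FPKM in Liver, 13.2 FPKM in Intestine and 9.21 FPKM in Testis. The lipolysis-stimulated lipoprotein receptor (C0J45_11641), an epithelial protein, had 43.6 FPKM in Maxillary_barbel, 43.2 FPKM in Mandibular_barbel, 34.1 FPKM in Gill, 28.8 FPKM in Intestine and 24.7 FPKM in Skin, and at most 0.625 FPKM in the 4 nervous tissues.

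Other receptors were broad or neural. LDL receptor-related proteins 10 (C0J45_06384) and 12 (C0J45_23524) were among the more even, at 38.7 FPKM in Gill and 29.2 FPKM in Olfactory_bulb at the high end, with tau of 0.33 each. LDL receptor-related protein 11 (C0J45_16570) had 36.5 FPKM in Telecephlon and 18.6 FPKM in Olfactory_bulb. LDL receptor-related protein 5, a Wnt co-receptor in vertebrates, had 42.7 FPKM in Liver and 18.3 FPKM in Intestine (C0J45_05497). The 2 models of protein 8, the reelin receptor known as apolipoprotein E receptor 2 in mammals, reached 8.22 FPKM in Olfactory_bulb (C0J45_00836) and 5.73 FPKM in Telecephlon (C0J45_05611). Among proteins with an LDL receptor class A domain, the 4-like model C0J45_04082 and the model C0J45_18791 were highest in Retina, at 38.8 and 25.4 FPKM.

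Fatty acid-binding proteins are small cytosolic carriers, and their names in fish follow the tissue of the mammalian gene. The highest brain, liver basic and intestinal models led in the tissue of their name, and the heart type did not. Brain-type 7a (C0J45_07668, chromosome 8) had 5549 FPKM in Brain, 3050 FPKM in Olfactory_bulb, 2445 FPKM in Telecephlon and 1008 FPKM in Retina. Outside the nervous tissues it had 25.6 FPKM in Maxillary_barbel and at most 4.15 FPKM elsewhere. The liver basic type 10-A (C0J45_18491, chromosome 21), a form known from fish and birds and absent from mammals, had 5048 FPKM in Liver, 11.0 FPKM in Testis and 3.46 FPKM in Intestine. Type 1-B.1 (C0J45_15423), a relative of the mammalian liver type, was instead higher in Intestine, at 620 FPKM, than in Liver, at 229 FPKM.

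The intestinal type had 3 models. C0J45_22990 had 379 FPKM in Intestine, 63.1 FPKM in Mandibular_barbel, 50.0 FPKM in Maxillary_barbel, 15.1 FPKM in Testis and 11.9 FPKM in Gill. C0J45_24749, on an unplaced scaffold, had 229 FPKM in Intestine, 38.1 FPKM in Mandibular_barbel, 35.3 FPKM in Maxillary_barbel and 11.1 FPKM in Gill. Both are short models, of 147 and 315 coding bases, and both were next-highest in the barbels. C0J45_23126 on chromosome 28 had 81.2 FPKM in Intestine and 45.1 FPKM in Testis, and at most 1.36 FPKM, in Maxillary_barbel, elsewhere.

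Heart-type fatty acid-binding protein (C0J45_19485) was in every tissue, from 33.4 FPKM in Intestine through a median of 366 FPKM to 1531 FPKM in Skin. Liver, at 1110 FPKM, and the barbels, at 846 FPKM in Maxillary_barbel and 824 FPKM in Mandibular_barbel, were above Heart, at 591 FPKM, and Muscle, at 206 FPKM. Its neighbour of the same name, C0J45_19484, stayed at or under 0.424 FPKM. Type 11a (C0J45_19585), of a fish family related to mammalian adipocyte binding protein, had 575 FPKM in Heart, 531 FPKM in Spleen, 258 FPKM in Liver and at least 8.89 FPKM in each of the 18 tissues. Type 11b (C0J45_03984) had 135 FPKM in Maxillary_barbel, 127 FPKM in Mandibular_barbel, 117 FPKM in Retina and 69.4 FPKM in Gill, and was listed at 0 in Pancreas and Ovary.

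A second model named brain-type 7a (C0J45_20339, chromosome 23) did not follow its name. It had 98.9 FPKM in Skin and 30.7 FPKM in Ovary, 0.103 FPKM in Muscle, and was listed at 0 in the other 15 libraries, Brain included. The model beside it, also named brain-type (C0J45_20340), had 0.785 FPKM in Ovary at most. A further model named brain-type, C0J45_20202, was listed at 0 in all 18 libraries.

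Long-chain fatty acid CoA ligases activate fatty acids for use. Ligase 6, a neural form in mammals, had 66.2 FPKM in Olfactory_bulb, 61.8 FPKM in Brain and 34.4 FPKM in Telecephlon for C0J45_15230, and 20.1 FPKM in Retina for C0J45_13700. Ligase 4 (C0J45_05153), which prefers arachidonic acid, had 50.2 FPKM in Telecephlon. ACSBG2, a bubblegum-type ligase, had 111 FPKM in Gill and 51.4 FPKM in Intestine for C0J45_22440, and 42.4 FPKM in Brain for C0J45_15755. Ligase 1 (C0J45_22795) was highest in Heart, at 31.1 FPKM, and ligase 5 (C0J45_07187) had 12.3 FPKM in Intestine and at most 1.75 FPKM, in Liver, elsewhere.

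Elongases lengthen fatty acids past the chain made by fatty acid synthase. The elongase-like 4 gene C0J45_15029 had 323 FPKM in Retina, 3.05 FPKM in Ovary and at most 0.869 FPKM elsewhere. Elongase 4 is known in mammals for the very long polyunsaturated chains of photoreceptor membranes, and summed photoreceptor markers were 41649 FPKM in Retina and at most 1.67 FPKM elsewhere. The gene named elongase 4 (C0J45_04335) was neural as a whole, with 79.9 FPKM in Retina, 78.5 FPKM in Telecephlon, 41.1 FPKM in Olfactory_bulb and 39.2 FPKM in Brain, and at most 2.11 FPKM elsewhere. The 4-like gene C0J45_15848 was in other tissues, with 30.6 FPKM in Liver, 30.4 FPKM in Gill, 15.4 FPKM in Kidney and 9.24 FPKM in Intestine.

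Both elongase 7 copies were highest in Gill. Elongase 7 had 122 FPKM in Gill, 57.9 FPKM in Maxillary_barbel and 58.7 FPKM in Mandibular_barbel for C0J45_10666, and 60.0 FPKM in Gill, 49.4 FPKM in Maxillary_barbel, 59.6 FPKM in Mandibular_barbel and 34.8 FPKM in Brain for C0J45_15782. In Skin the copies had 0.815 FPKM (C0J45_10666) and 13.5 FPKM (C0J45_15782). The elongase-like 1a gene C0J45_17442 had 53.8 FPKM in Gill and 26.1 FPKM in Ovary. It overlaps a neighbouring gene model in the annotation. Elongases 5 and 2 act on polyunsaturated fatty acids in fish. Elongase 5 (C0J45_02089) was broad, with 81.6 FPKM in Intestine, 78.4 FPKM in Liver and 57.9 FPKM in Brain. Elongase 2 (C0J45_18361) had 45.7 FPKM in Telecephlon, 45.1 FPKM in Brain, 29.0 FPKM in Retina, 25.9 FPKM in Liver and 13.1 FPKM in Olfactory_bulb, and at most 0.174 FPKM elsewhere.

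Fatty acid desaturase 2, the enzyme that starts the making of long polyunsaturated chains, followed the tissues of elongase 2. C0J45_09643 had 93.1 FPKM in Brain, 81.2 FPKM in Telecephlon, 80.7 FPKM in Olfactory_bulb, 33.0 FPKM in Retina and 16.8 FPKM in Liver, and at most 1.67 FPKM elsewhere. The copy beside it on chromosome 10, C0J45_09644, had 91.5 FPKM in Olfactory_bulb, 43.8 FPKM in Telecephlon and 37.6 FPKM in Brain, but 0.0431 FPKM in Liver. Intestine had 0.0692 FPKM of C0J45_09643 and a listed 0 of C0J45_09644.

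Perilipins coat lipid droplets. Perilipin-2 (C0J45_06099), the form of most tissues, had 61.6 FPKM in Liver, 57.2 FPKM in Spleen and 39.7 FPKM in Head_kidney, a median of 25.9 FPKM, and 0.425 FPKM in Ovary. Perilipin-3 (C0J45_15737) had 110 FPKM in Skin, 69.4 FPKM in Intestine and 31.2 FPKM in Liver, a median of 9.20 FPKM, and 0.401 FPKM in Pancreas. No other model had the word perilipin in its name.

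Several names stood on more than 1 gene model. Names were compared with the ending -like, the word precursor and isoform numbers taken off. A gene and its -like model thus counted as sharing a name. Of names so shared by at least 2 models that reached an FPKM of 1, there were 25, holding 63 models. In 19 of them the copies were highest in different tissues and in 6 in the same tissue. The same share over all names in the annotation was not computed, so the 19 cannot be read as a trait of lipid-handling genes. Some of the 19 differed little, such as LDL receptor-related protein 8 above, and others were highest in unlike tissues, such as megalin and brain-type 7a. The 4 models of LDL receptor-related protein 4, of which 3 are fragments on unplaced scaffolds, were all highest in Telecephlon, between 5.10 and 9.09 FPKM. Of the 106 models, 49 have an open end in the annotation and 7 lie on unplaced scaffolds, so that some copies may be pieces of the same gene, which was not tested.

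**Figure D4:**
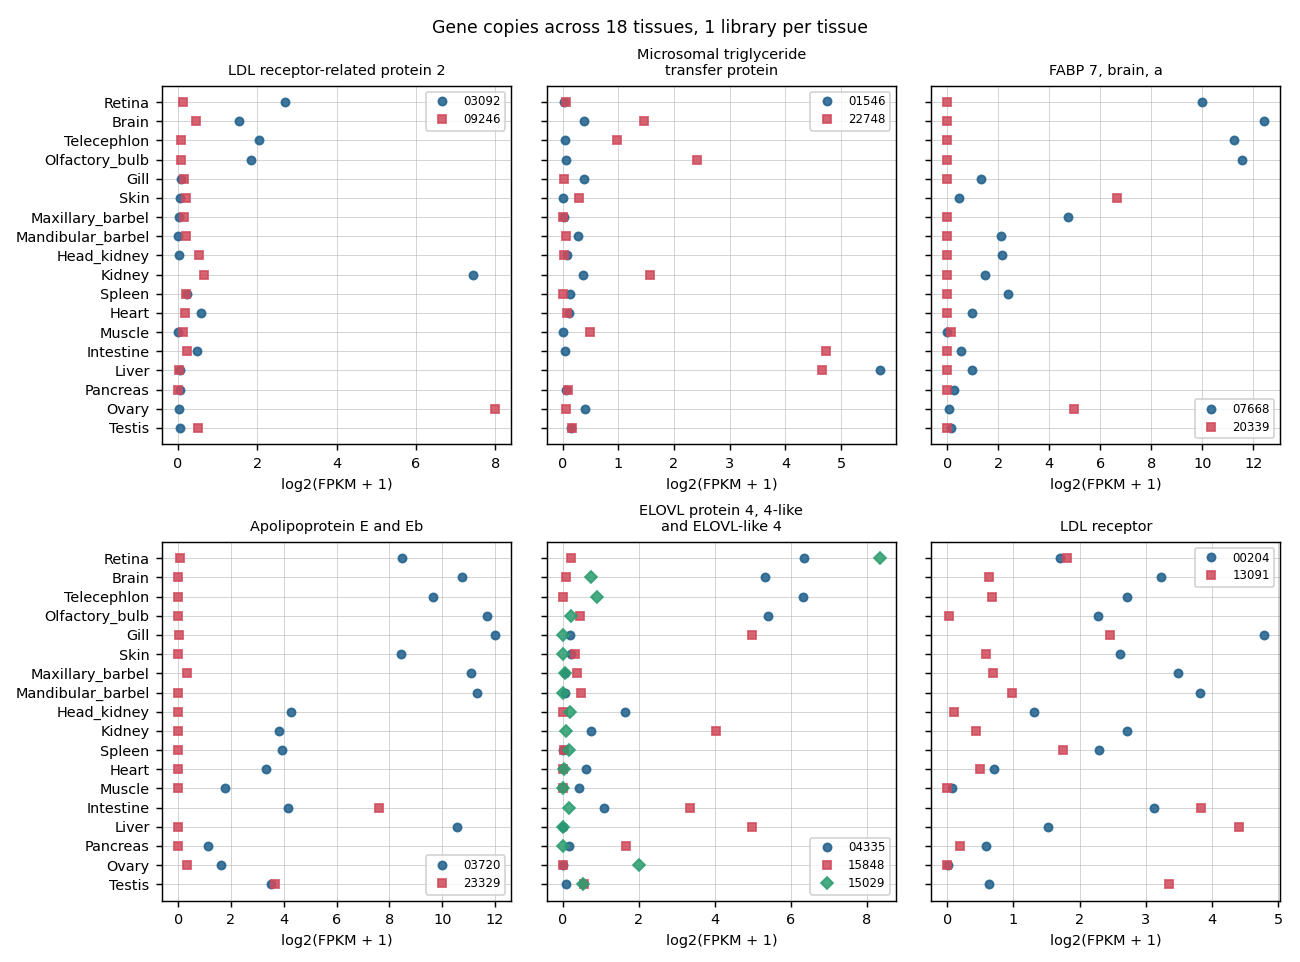
Level of gene copies as log2(FPKM + 1) on the horizontal axis in each of 18 tissues, 1 library per tissue, in 6 panels; each symbol is a copy, named by the number of its locus tag. Copies are grouped by annotation name alone. The models named as megalin peak in Kidney (173 FPKM) and Ovary (256 FPKM), the 7a copies in Brain (5549 FPKM) and Skin (98.9 FPKM), and the E copies in Gill (4134 FPKM) and Intestine (193 FPKM).

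Pairs of tissues were compared by the log2 ratio of FPKM + 1, which makes differences between low levels look smaller. Genes whose FPKM reached 5 in either tissue entered, and a size of at least 2 (4-fold) was counted. Intestine was set against Liver, the organs that build lipoproteins. Of 47 lipid-handling genes compared, 11 were at least 4-fold higher in Intestine (background 30.0% of 9798 genes) and 16 at least 4-fold lower (background 6.33%). The median log2 ratio was 0.08 over these 47 and 1.45 over all genes, since most genes were higher in Intestine. With the median of all genes set to 0, the counts were 6 higher and 20 lower.

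The genes highest in Intestine relative to Liver were the intestinal binding proteins and the E copy. C0J45_22990, C0J45_24749 and the E copy C0J45_23329 were listed at 0 in Liver, and C0J45_23126 had a log2 ratio of 6.20, or 4.75 past the median. ACSBG2 C0J45_22440 had 3.64 and A-IV C0J45_03721 had 3.66, each past 2 also after the median was taken off, at 2.19 and 2.21. At the other end, C-I had -12.16, binding protein 10-A -10.14, C-II -9.24, A-IV C0J45_03727 -8.87 and Eb -6.36, and A-I was listed at 0 in Intestine. By class, 3 apolipoproteins were higher and 8 lower of 15 compared, 4 binding proteins were higher and 2 lower of 8, 3 CoA ligases were higher and 0 lower of 4, and 1 receptor was higher and 0 lower of 10.

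**Figure D5:**
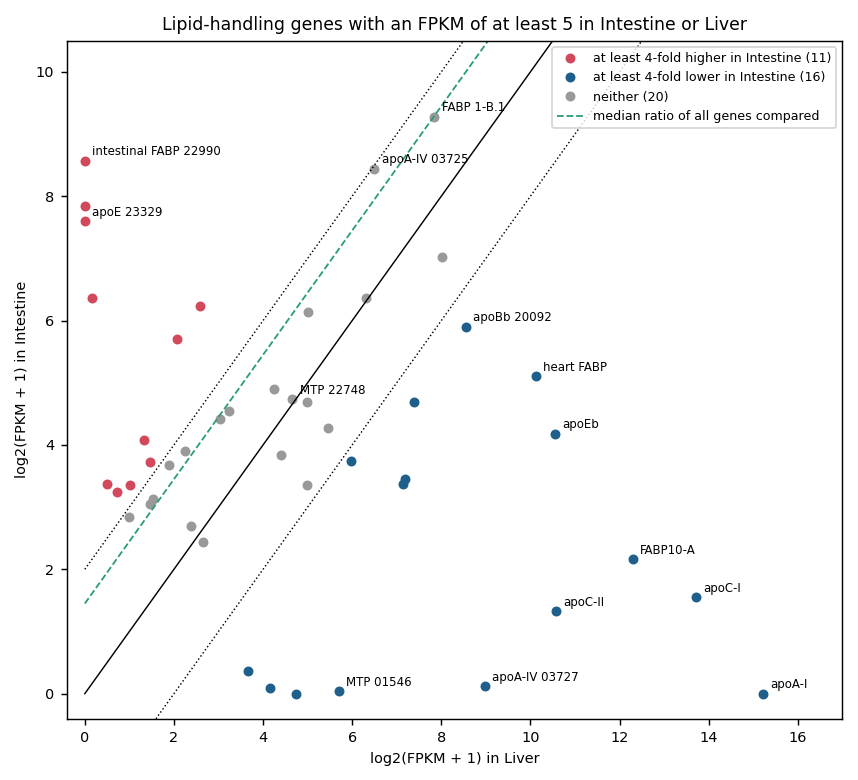
Level in Intestine (vertical axis) against level in Liver (horizontal axis) as log2(FPKM + 1), each point being 1 of the 47 lipid-handling genes whose FPKM reached 5 in either tissue, 1 library per tissue. The solid line marks equal levels, the dotted lines 4-fold, and the dashed line the median log2 ratio of all 9798 genes compared, 1.45; 11 genes lie above the upper dotted line and 16 below the lower.

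Heart was set against Muscle. Of 20 genes compared, 13 were at least 4-fold higher in Heart (background 52.1% of 7797 genes) and 0 lower (background 2.87%). Here too the whole table was shifted, with a median log2 ratio of 2.57 for the 20 and 2.07 for all genes, and with that median set to 0 the counts were 0 higher and 3 lower. The O-like gene C0J45_21624 had the largest ratio, 3.35. Lipoprotein lipase had 56.4 FPKM in Heart and 5.57 FPKM in Muscle (3.13), the very low-density lipoprotein receptor C0J45_10996 had 17.1 FPKM in Heart and 1.18 FPKM in Muscle (3.05), and perilipin-2 had 13.0 FPKM in Heart and 0.743 FPKM in Muscle (3.01). The 3 genes lower after centring were the LDL receptor adapter 1 model C0J45_01992, LDL receptor-related protein 12 and ACSBG2 C0J45_15755, whose levels in Heart and Muscle were close.

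Retina was set against Brain. Of 41 genes compared, 4 were at least 4-fold higher in Retina (background 6.72% of 12068 genes) and 7 lower (background 6.57%), with a median log2 ratio of -0.69 for the 41 and -0.10 for all genes. With the median of all genes set to 0, the counts were 5 higher and 7 lower. Elongase-like 4 C0J45_15029 had a log2 ratio of 7.60, binding protein 11b had 117 FPKM in Retina and 4.59 FPKM in Brain (4.40), the D-like C0J45_05586 had 3.65, and the class A domain gene C0J45_04082 had 2.58. The 7 lower genes were elongase 7 C0J45_15782 (-4.72), C-I (-4.09), D (-4.01), binding protein 7a (-2.46), desaturase 2 C0J45_09644 (-2.37), Eb (-2.27) and ligase 6 C0J45_15230 (-2.23).

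Ovary was set against Testis. Of 23 genes compared, 6 were at least 4-fold higher in Ovary (background 41.9% of 5242 genes) and 15 lower (background 24.3%). The median log2 ratio was -2.73 for the 23 and 1.43 for all genes. With the median of all genes set to 0, the counts were 4 higher and 17 lower. The 6 higher genes were the megalin copy C0J45_09246 (7.50), the 1B model C0J45_10991 (6.53), the second 7a model C0J45_20339 (listed at 0 in Testis), elongase-like 1a (4.42), the very low-density lipoprotein receptor C0J45_10996 (2.64) and heart-type binding protein, at 597 FPKM in Ovary and 134 FPKM in Testis (2.15). The last 2 of these fell under 4-fold once the median was taken off, at 1.21 and 0.72. Among the lower genes were intestinal binding protein C0J45_23126 (-4.91), A-I (-4.39), A-IV C0J45_03725 (-4.23), lipoprotein lipase (-4.08) and C-I (-4.07). Each of these was highest in Liver or Intestine. By class, 0 apolipoproteins were higher and 6 lower of 7 compared, and 2 binding proteins were higher and 5 lower of 7. Liver and intestine transcripts in Testis are described below, and their part in the lower count was not tested.

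Maxillary_barbel and Mandibular_barbel, the closest tissues in kind, gave a view of how far like libraries stand apart. Of 35 genes compared, 1 was at least 4-fold higher in Maxillary_barbel (background 0.341% of 9962 genes) and 1 lower (background 0.281%). The SD of the log2 ratio over the 35 genes was 0.76, and 0.42 over all genes. It measures the spread between genes and is not an error between libraries. Binding protein 7a had 25.6 FPKM in Maxillary_barbel and 3.28 FPKM in Mandibular_barbel (2.63), and the D-like C0J45_05586 had 0.217 FPKM in Maxillary_barbel and 6.28 FPKM in Mandibular_barbel (-2.58).

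Testis was examined for liver and intestine transcripts. Of 26 lipid-handling genes that were highest in Liver or Intestine with an FPKM of at least 10, Testis was next-highest for 6 (23.1%), against 5.48% of the 1405 genes of that kind, and 17 of the 26 (65.4%) had an FPKM of at least 1 there, against 43.3% of the 1405. The 9 genes enriched in Liver stood in Testis at between 0.0312% and 3.53% of their Liver level, with a median of 0.208%. The 5-fold rule chose these genes and the markers set beside them. It keeps their level low in every tissue but Liver in advance, so no conclusion is drawn from low shares. The 14 hepatocyte marker models enriched in Liver stood at between 0.0129% and 0.356%, with a median of 0.141%, and 7 of the 15 hepatocyte marker models had an FPKM of at least 1 in Testis. Within the marker range were A-I at 0.0876%, C-I at 0.144%, C-II at 0.147% and 10-A at 0.218%. So were microsomal triglyceride transfer protein C0J45_01546 at 0.208% and Bb C0J45_20091 at 0.0312%. Above it were A-IV C0J45_03727 at 1.11%, apolipoprotein F at 2.09% and Bb C0J45_20092 at 3.53%, so the neighbouring Bb models stood apart. In Pancreas the 9 genes had a median of 0.0550% and the 14 markers 0.0522%, and apolipoprotein F stood out at 18.9%. The 13 enterocyte marker models summed to 16.1 FPKM in Testis and 2426 FPKM in Intestine, and 4 of them had an FPKM of at least 1 in Testis. The part of other cells in the Testis values was not tested.

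A wider list of 72 symbols of lipid metabolism outside the name rule matched 66 symbols and 96 gene models. Of these models, 13 were tissue-enriched (13.5%, background 7.51% of all genes), 5 of them in Liver (background 0.965%). For digestion and lipolysis, carboxyl ester lipase had 26540 FPKM in Pancreas and a hepatic lipase-like gene (C0J45_01608) 4219 FPKM, while the gene named hepatic lipase (C0J45_21786) had 85.8 FPKM in Liver. For uptake, CD36, the fatty acid receptor, had 434 FPKM in Intestine, against at most 11.9 FPKM elsewhere. Of plasma proteins, angiopoietin-related protein 3 (C0J45_05613), an inhibitor of lipoprotein lipase, had 548 FPKM in Liver, and its other copy (C0J45_00807) had 101 FPKM in Brain and 61.7 FPKM in Liver. The cholesteryl ester transfer protein had 69.4 FPKM in Liver. The receptor-associated protein, a chaperone of the LDL receptor family, was highest in Kidney, the tissue of the long megalin copy, at 109 FPKM.

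Of the 22 models of synthesis and storage, 2 were highest in Intestine and 2 in Liver, and 5 were highest in Brain. Among all genes that reached 10 FPKM in some tissue, a narrower base, 5.33% were highest in Intestine, 3.86% in Liver and 4.51% in Brain. Diacylglycerol acyltransferase 1 (C0J45_19271) had 115 FPKM in Intestine, its isozyme 2 (C0J45_11031) had 52.4 FPKM in Liver, and the 2 monoacylglycerol acyltransferase genes had 83.1 FPKM in Intestine (C0J45_11032) and 84.5 FPKM in Liver (C0J45_15019, next 34.5 FPKM in Ovary). Other enzymes of triglyceride synthesis were highest elsewhere: glycerol-3-phosphate acyltransferase (C0J45_07184) had 23.1 FPKM in Brain, lipin 1 (C0J45_07731) 18.2 FPKM in Heart and a second diacylglycerol acyltransferase 1 (C0J45_04079) 16.9 FPKM in Gill. None of the 19 beta oxidation models was tissue-enriched, against 7.51% of all genes, and 13 of them were highest in Heart, against 4.42% of the 25150 genes above 0 in some tissue, among them the trifunctional enzyme subunit beta at 331 FPKM and ketoacyl-CoA thiolase at 265 FPKM. In Intestine against Liver, 16 of the 68 models compared were at least 4-fold higher and 12 lower. In Heart against Muscle, 20 of 35 were higher and 0 lower, in Retina against Brain 3 of 54 were higher and 8 lower, in Ovary against Testis 7 of 15 were higher and 4 lower, and in Maxillary_barbel against Mandibular_barbel 0 of 44 were past 4-fold. The backgrounds given above apply to these counts.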

How the data were processed

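Per the labels' protocols, RNA was extracted with Trizol, treated with DNase, selected for poly(A) and made into paired-end libraries. StringTie 1.3.4d made the expression values, per the submitters' processing notes, which name neither an aligner nor a build. The FPKM deposited by the authors cover 25390 genes in 18 libraries, and a model for counts was not run on them. A deposited annotation gave names, 1-based coordinates and coding lengths. No genome sequence was used.

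The genes and the lists of markers and pathway genes were chosen with earlier results of these data known. The name patterns that stand for the list symbols were written after the tables were opened. A fold call used log2(FPKM + 1), a pseudocount of 1. Libraries were not rescaled, and their sums differed. Whole reads were not recovered: between 18.7% and 40.5% of low values lay within 0.02 of a whole step.

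Genes named were the tissue-enriched genes, the 3 highest of most classes, up to 6 per direction of a pair, those beside the 5-fold threshold and pathway examples. The third desaturase and the vitellogenins were given without locus tags. Other copies were named after their values were seen. The calls were tested on simulated data, with planted changes of 20-fold for the 5-fold rule and 8-fold for the 4-fold rule. Changes so large pass these rules nearly by design. The simulation therefore checks the code and not the calls on real data. Python 3.11.15, numpy 2.4.6, pandas 2.3.3 and matplotlib 3.10.9 were used. Alternatives were other scalings, pseudocounts, minimums and folds.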

Additional observations from a re-analysis of the deposited data

How the results depend on the processing

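With 1 library per tissue, no value here has a replicate error, and the estimated depth limits genes of low FPKM, above all in Skin and Muscle. No paired analysis was possible because each tissue had 1 library. The count of 19 tissue-enriched genes ran between 13 with a 10-fold threshold, all 13 among the 19, and 22 with a pseudocount of 0.1, which held all 19. With libraries rescaled to the same upper quartile it was 18, of which 16 were among the 19. C0J45_00976, C0J45_17393 and C0J45_23329 were then lost, and C0J45_04082 and C0J45_05497 gained. The tissue-enriched genes of Intestine fell to 2 with a 10-fold threshold, and to 2 without models on unplaced scaffolds or under 300 coding bases. Without these models the count was 16, and C-I in Liver was lost too. That alternative was chosen after seeing the data, as was leaving out Testis or Skin, which gave 20 genes each. Genes with a tau of at least 0.85 numbered 20 with a pseudocount of 0.1. In Intestine against Liver, 7 were higher and 20 lower with libraries rescaled to the same upper quartile, and 6 were higher and 20 lower with the median set to 0. In Heart against Muscle, 4 were higher with the same upper quartile, and 0 were higher and 3 lower with the median set to 0. In Ovary against Testis, 9 were higher and 22 lower with the same upper quartile. In the barbels, 0 were lower with the same upper quartile and 2 with a pseudocount of 0.1. The cause was not tested beyond the shift of the whole table that the scalings remove. The other 82 planned and 8 added alternatives of main counts stayed within 1.5 times.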
